A study of Mus musculus with 9 samples.

Results

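The genes described here are 10 genes of the cytosolic and mitochondrial heat shock system, Hspa1a, Hspa1b, Hspa8, Hsp90ab1, Dnajb1, Hsph1, Hspd1, Hspe1, Hspa4 and Hsf1, which were taken by name from the 48709 genes counted in sorted hippocampal neuronal nuclei of mice. All 10 passed the filter on low counts and are among the 17361 genes tested. The libraries came from 3 vehicle-treated WT mice, 3 vehicle-treated Tg4-42 mice and 3 caffeine-treated Tg4-42 mice, all 6 months of age. WT mice were C57BL/6J. Tg4-42 mice were on the same strain, homozygous for a transgene that overexpresses human Aβ4-42 in neurons under the Thy1 promoter, and the labels give their genotype as APP Transgenic. Caffeine was given at 300 mg/l in the drinking water for 4 months from the age of 2 months, and the vehicle was tap water. The labels name the treatment for the caffeine group only, and there was no caffeine-treated WT group in the sequencing, so an effect of caffeine can be read in Tg4-42 mice alone. The nuclei had been sorted by their stain for NeuN, a protein of neuronal nuclei, and the counts therefore describe nuclear RNA.

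Heat shock proteins are chaperones that hold, fold and refold other proteins. HSP70 proteins bind exposed stretches of a client protein in a cycle of ATP use, which J-domain proteins such as Dnajb1 start and nucleotide exchange factors such as Hsph1 and Hspa4 complete, while HSP90 acts on clients at a later stage and the Hspd1 and Hspe1 proteins form a folding chamber in mitochondria. Hsf1 is the transcription factor that turns on many of these genes when proteins misfold, by binding heat shock elements, short repeats of GAA and its reverse complement TTC. In neurons, the constitutive HSP70 encoded by Hspa8 also strips clathrin from synaptic vesicles and takes proteins to lysosomes.

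The upstream sequences show what some of these genes share apart from their names. RefSeq windows (assembly GRCm38.p6) were found for 7 of the 10 genes, and the 250 bases before the start were searched on both strands for GAANNTTC, a pair of units, and for GAANNTTCNNGAA, a run of 3 units that contains the pair. Units in the opposite order, with the same spacing, also counted as a pair, as in the Hsph1 stretch below. The pair was found in 12.8% of 32851 windows of all genes and the run in 0.466%. The stretches are shown 5′ to 3′ on the strand of each gene, with the matched bases in capitals, because they mark the genes that hold such an element and the pairs of genes that share 1.
Hspa1a: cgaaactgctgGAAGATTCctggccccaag
Hspa1b: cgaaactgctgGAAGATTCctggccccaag
Hsph1: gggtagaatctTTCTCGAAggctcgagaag
Hspd1: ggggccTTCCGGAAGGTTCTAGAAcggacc
Hspe1: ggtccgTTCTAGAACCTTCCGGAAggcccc

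The stretches of Hspa1a (chr17:34972242-34972271) and Hspa1b (chr17:34959324-34959353), both on the minus strand, were the same, and 247 of the 250 bases before their starts were identical (98.8%). The stretches of Hspd1 and Hspe1 are the same 30 bases, chr1:55088053-55088082, read from the minus strand for Hspd1 and from the plus strand for Hspe1, genes that run in opposite directions from this place. This shared stretch held the run of 3 units in overlapping copies. It lies before the annotated start of Hspe1 and before the inner of the 2 RefSeq starts of Hspd1, within the first exon of a longer annotated Hspd1 transcript. The Hsph1 stretch (chr5:149636351-149636380, minus strand) lies before both RefSeq starts of the gene but partly within the first exon of an annotated GENCODE transcript. Neither motif was found in the windows of Dnajb1 and Hspa4, which says only that these letters are not in those 250 bases.

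Between 9342945 and 16376922 reads per library were counted on genes, and 3 counts, the smallest level taken as detected, equal 0.183 to 0.321 CPM (counts normalized by the library total and edgeR's TMM factors), a floor that takes only counting error into account. Lane 6 held replicates 1 and 2 of each group, and lane 7 held replicate 3. The extraction protocol in the labels names 6 mice per group, whereas 3 libraries per group were available here, and each carries its own animal number. Neuronal markers were high in every library, with a summed level of 6101 to 8671 CPM for 7 genes. Endothelial markers were near 0, at 0.649 to 1.29 CPM summed over 5 genes, and 4 of the 5 were at 0 in at least 1 library. Oligodendrocyte markers (6 genes, 253 to 508 CPM), astrocyte markers (6 genes, 135 to 264 CPM) and microglia markers (6 genes, 37.7 to 70.3 CPM) were present in all libraries in spite of the sort.

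Levels of the genes relative to each other were compared as RPKM, the CPM divided by the length of all annotated exons in kilobases. Hsp90ab1, the constitutive cytosolic HSP90, was by far the highest, with a mean of 332 RPKM over the 9 libraries (264 to 430), above 99.5% of the genes tested. Hspa8 followed with 38.9 RPKM (22.7 to 52.0) and the HSP110 gene Hsph1 with 35.5 RPKM (25.2 to 43.8), and these neighbours did not differ beyond their spread, Hspa8 being the higher in 6 of 9 libraries. Dnajb1 had 22.0 RPKM and was below Hsph1 and above Hspd1 in each of the 9 libraries.

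On this scale the mitochondrial chaperonin genes, Hsf1 and Hspa4 lay close together. Hspd1 had 12.4 RPKM, Hsf1 11.4 RPKM, Hspa4 10.1 RPKM and Hspe1 9.33 RPKM, and each was above the next in only 5, 7 and 7 of the 9 libraries, so their order cannot be read. The stress-inducible HSP70 genes were the lowest, Hspa1b with 1.81 RPKM (1.38 to 2.23) and Hspa1a with 0.875 RPKM (0.547 to 1.21), both above the floor in each library, and Hspe1 had 5.15 times the level of Hspa1b in the mean. In this order the constitutive HSP70 gene exceeded both inducible ones in every library. The middle of the order depended on the length used. Per kilobase of the longest coding transcript, an alternative added after seeing the data, Hsf1 had 38.4 RPKM and stood above Dnajb1 (23.5 RPKM) in each of the 9 libraries, followed by Hspe1 (17.8 RPKM), Hspd1 (13.6 RPKM) and Hspa4 (12.1 RPKM). Hsp90ab1, Hspa8 and Hsph1 were the highest and Hspa1b and Hspa1a the lowest with either length.

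How reads were counted limits some of these levels. Reads were 50 bases long, and 74.8% of the 50-base windows of the Hspa8 transcript also occur in other annotated transcripts, mostly in the processed pseudogenes Gm15459 and Gm8355 and the noncoding Gm26825. Gm15459 had 0, Gm8355 1 and Gm26825 92 counts over the 9 libraries, against 20496 for Hspa8. Reads from the shared windows were thus hardly counted on these 3 genes. Whether they were counted on Hspa8 or left out cannot be told from these values. Shared windows made up 66.3% of Hspa1a and 62.3% of Hspa1b, whose transcripts are 99.3% identical over 2197 aligned bases, 44.8% of Hspd1, 44.8% of Hspe1, 4.49% of Hsp90ab1 and 0.441% of Dnajb1, and 0 for Hsph1, Hspa4 and Hsf1. How the authors treated reads that map to several places is not given in the sources used here. The split between Hspa1a and Hspa1b is therefore uncertain, and how many reads of Hspa8, Hspd1 and Hspe1 were left out is unknown. Where such reads were left out, RPKM would be too low for these genes, but not for Hsph1, with 0 shared windows. The close levels of Hspa8 and Hsph1, with either length, may therefore not reflect their RNA. Exons of Hspd1 and Hspe1 also overlap by 112 bases on opposite strands, and the library kit does not mark the strand.

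**Figure D1:**
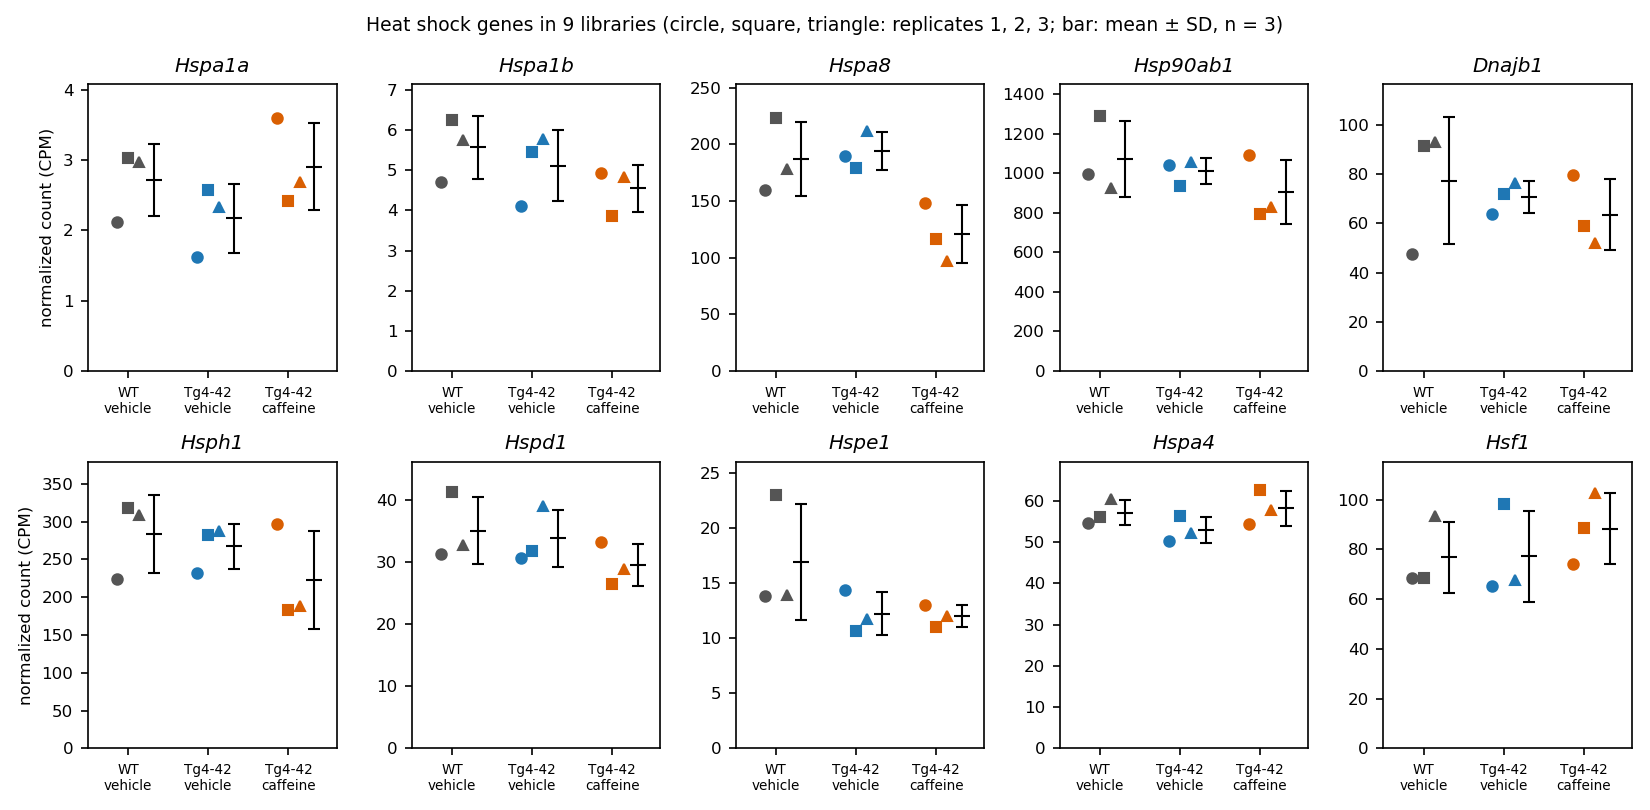
Normalized counts (CPM, linear axes from 0) of the 10 heat shock genes in the 9 libraries, with 1 panel per gene and the mean ± SD of each group (n = 3) at its right. The 3 caffeine-treated libraries of Hspa8 (97.4 to 148 CPM) lie below all 6 vehicle-treated ones (159.5 to 224 CPM), whereas the groups overlap for most other genes.

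None of the 10 genes passed an adjusted p of 0.05 in any of the 3 comparisons (edgeR's quasi-likelihood F test, Benjamini-Hochberg adjustment over all tested genes). The comparison of caffeine with vehicle in Tg4-42 mice asked whether long-term caffeine changes these transcripts in neurons of the model, and here 0 of 10 genes were called, where 0.881% of all tested genes were. By an unadjusted p under 0.05, 1 of 10 was (17.0% of all genes), and the 3 libraries of each group did not overlap for 1 of 10 (23.0% of all genes), so neither share exceeded that of all genes. The median log2 fold change of the 10 genes was −0.16, with 7 lower and 3 higher, against −0.01 over all tested genes.

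Hspa8 was the gene with the lowest adjusted p. Its normalized counts were 159.5, 224 and 178 CPM in WT mice and 189.7, 179.5 and 212 CPM in Tg4-42 mice on vehicle. Mice on caffeine had 148, 117 and 97.4 CPM, and each of these libraries was below each of the other 6. Caffeine-treated mice had 120.8 ± 25.6 CPM (SD, n = 3) and vehicle-treated Tg4-42 mice 193.8 ± 16.8 CPM (n = 3), a log2 fold change of −0.68 (SE 0.16, 95% interval −1.02 to −0.34). The adjusted p from edgeR was 0.0559, just above the threshold, and the two-sided exact permutation test gave 0.1, the smallest p that 3 against 3 libraries allow.

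This value lay close enough to the threshold that the setting decided the call. With DESeq2, which called 5.12% of all genes, Hspa8 had an adjusted p of 0.00606 and a log2 fold change of −0.67. It also passed without a filter on low counts (3.20% of all genes called), with a filter at a mean of 50 counts (1.47%), with only the groups compared in the fit (1.35%), with limma-voom and quality weights (3.38%), after a correction for GC content (1.41%) and without caffeine replicate 1 (1.93%). It did not pass in the other alternatives, and the adjusted p ranged from 0.00039 to 0.868 over all of them. The direction was the same in every alternative, with log2 fold changes from −0.86 to −0.46. The highest adjusted p, 0.868, came from the libraries of lane 6 alone, where 0 genes were called. Within the lanes, the log2 ratio of caffeine to vehicle was −0.48 on lane 6 (2 against 2 libraries) and −1.12 on lane 7 (1 against 1).

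**Figure D2:**
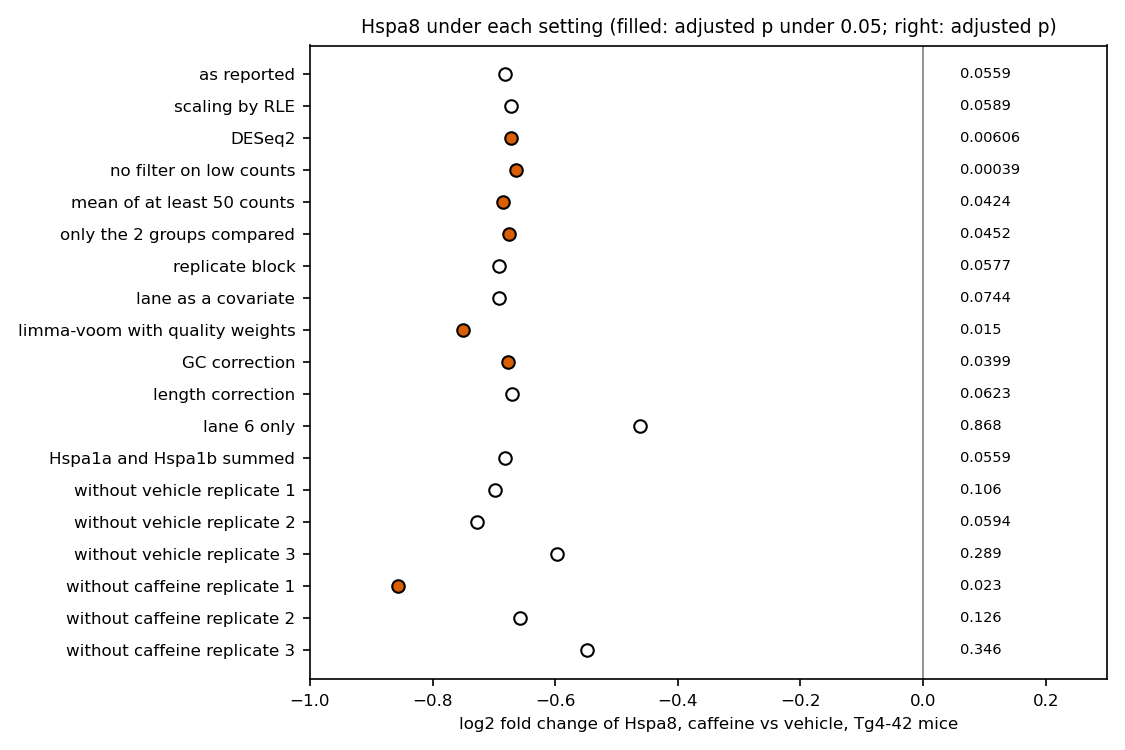
Log2 fold change of Hspa8 between caffeine- and vehicle-treated Tg4-42 mice (x axis) under each way of processing the counts (y axis), with the adjusted p of each at the right. All points lie below 0, between −0.86 and −0.46, and filled points have an adjusted p under 0.05.

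Markers of other cells moved between the same groups. Dentate granule cell markers were higher with caffeine, 2 of 10 past the threshold (Plk5 and Stxbp6) and all 10 above 0, with a summed level of 1246 to 1582 CPM against 577 to 1111 CPM in vehicle-treated Tg4-42 mice. CA pyramidal markers summed to 1144 to 1307 CPM with caffeine and 1492 to 1739 CPM with vehicle, but the list went both ways, with 7 of 12 below 0, 5 above 0 and a median log2 fold change of −0.09. Dkk3, the 1 of 12 past the threshold (833 ± 92.9 CPM with vehicle and 509 ± 120.3 CPM with caffeine), made up much of the lower sum. For interneuron markers the sums were 878 to 1134 CPM and 1180 to 1673 CPM. All 8 were below 0, with a median log2 fold change of −0.46, and Slc32a1 was the 1 past the threshold. None of the astrocyte, oligodendrocyte and microglia markers passed the threshold, and their sums were 135 to 192 against 206 to 248 CPM, 253 to 362 against 362 to 508 CPM, and 37.7 to 46.5 against 46.8 to 70.3 CPM, overlapping for oligodendrocyte markers alone. In the same order, the median log2 fold changes were −0.76, −0.69 and −0.56, with 5 of 6, 6 of 6 and 6 of 6 below 0. The part of these shifts in the Hspa8 values was not tested. In bulk samples, fewer cells of a type and less RNA per cell cannot be told apart.

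Ratios within a library do not depend on its scaling. There were 0.175 ± 0.0164 Hspa8 counts for each Hsp90ab1 count in WT mice, 0.192 ± 0.00976 in Tg4-42 mice on vehicle and 0.134 ± 0.0149 in those on caffeine (SD, n = 3 each). The caffeine-treated libraries (0.118 to 0.147) were all below the other 6 (0.16 to 0.201), with an exact permutation p of 0.1 for caffeine against vehicle. Hspa8 per Hspa4 was likewise lower, 2.10 ± 0.557 with caffeine and 3.68 ± 0.448 with vehicle, also with an exact p of 0.1. Hspa8 per Hsph1 overlapped between these groups (0.498 to 0.639 and 0.637 to 0.817). For Dnajb1, the J-domain partner of HSP70, the ratio to Hspa8 was higher with caffeine, 0.525 ± 0.0174 against 0.366 ± 0.0328 (exact permutation p 0.1), and these groups did not overlap. In WT mice it was 0.41 ± 0.111 (0.299 to 0.521), which overlapped with the caffeine-treated libraries (0.505 to 0.537, exact permutation p 0.2). Each of these ratios contains Hspa8, whose own levels already lay apart between caffeine and vehicle, as for 23.0% of all genes. The ratios are therefore not separate evidence, and how often ratios of other genes separate was not counted.

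For the stress-inducible HSP70 genes, the values went opposite ways within small counts. Hspa1a had 2.12, 3.03 and 2.97 CPM in WT mice, 1.62, 2.57 and 2.33 CPM in vehicle-treated and 3.60, 2.42 and 2.69 CPM in caffeine-treated Tg4-42 mice, from 15 to 49 counts per library. Hspa1b had 4.71, 6.25 and 5.75 CPM, 4.11, 5.45 and 5.78 CPM, and 4.93, 3.87 and 4.84 CPM in the same order, from 38 to 99 counts. The groups overlapped for both genes. The log2 fold change of caffeine against vehicle was 0.40 for Hspa1a (SE 0.30, adjusted p 0.544) and −0.18 for Hspa1b (SE 0.24, adjusted p 0.754), with 95% intervals of −0.25 to 1.04 and −0.68 to 0.32.

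The transcripts are 99.3% identical over 2197 aligned bases, so the sum of both genes was also taken. It does not depend on how shared reads were split between them, but any reads that were left out stay missing. The sum was 8.28 ± 1.29 CPM in WT, 7.29 ± 1.35 CPM in vehicle-treated Tg4-42 and 7.45 ± 1.12 CPM in caffeine-treated Tg4-42 mice (SD, n = 3 each). The log2 fold change of the sum with caffeine was 0.02 (95% interval −0.45 to 0.49, adjusted p 0.971). The ratio of Hspa1b to Hspa1a was 1.59 ± 0.217 with caffeine, 2.38 ± 0.223 with vehicle and 2.07 ± 0.144 in WT mice, and the caffeine-treated libraries (1.37 to 1.80) were below the other 6 (1.94 to 2.53). For caffeine against vehicle the exact permutation p was 0.1, the smallest possible, with only 15 to 49 Hspa1a counts per library. How often ratios of other genes separate in this way was not counted. The noncoding Gm10501, which shares 50-base windows with both genes, had 530 counts over the 9 libraries against 324 for Hspa1a and 629 for Hspa1b.

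Hsp90ab1 had 997, 1289 and 925 CPM in WT mice, 1043, 937 and 1054 CPM in vehicle-treated and 1092, 793 and 828 CPM in caffeine-treated Tg4-42 mice. The groups overlapped, and the log2 fold change with caffeine was −0.16 (SE 0.16, 95% interval −0.50 to 0.17, adjusted p 0.649). Dnajb1 had 47.6, 91.5 and 92.8 CPM, 63.8, 71.9 and 76.5 CPM, and 79.6, 59.0 and 51.8 CPM in the same groups, with WT replicate 1 the lowest of all libraries. Its log2 fold change was −0.16 (SE 0.23, adjusted p 0.775), and it was 0.05 on lane 6 alone.

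The nucleotide exchange factors of the HSP110 family differed in how much they varied. Hsph1 had 224, 318 and 309 CPM in WT mice, 232, 282 and 287 CPM in vehicle-treated and 297, 183 and 188 CPM in caffeine-treated Tg4-42 mice, so that caffeine replicate 1 stood with the high libraries of the other groups. The log2 fold change with caffeine was −0.26 (SE 0.19, 95% interval −0.66 to 0.13, adjusted p 0.509). Hspa4 was the steadiest of the 10 genes within groups, with coefficients of variation of 5.33%, 5.84% and 7.13%, and its levels were 57.1 ± 3.04 CPM in WT, 52.9 ± 3.09 CPM in vehicle-treated Tg4-42 and 58.1 ± 4.15 CPM in caffeine-treated Tg4-42 mice (n = 3 each). The log2 fold change was 0.14 (SE 0.12, 95% interval −0.11 to 0.38, adjusted p 0.597).

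Hspd1, the mitochondrial HSP60, had 31.3, 41.2 and 32.7 CPM in WT mice, 30.6, 31.9 and 39.1 CPM in vehicle-treated and 33.3, 26.6 and 28.9 CPM in caffeine-treated Tg4-42 mice. Its groups overlapped, with a log2 fold change for caffeine of −0.20 (SE 0.16, adjusted p 0.558). Its partner Hspe1, the mitochondrial HSP10, had 13.8, 23.1 and 13.96 CPM, 14.4, 10.7 and 11.7 CPM, and 13.0, 11.1 and 12.1 CPM. The log2 fold change for caffeine was −0.02 (SE 0.22, 95% interval −0.48 to 0.44, adjusted p 0.975). These neighbours share the upstream element shown above, and there were 0.476 ± 0.0725 Hspe1 counts per Hspd1 count in WT, 0.368 ± 0.09001 in vehicle-treated and 0.408 ± 0.0152 in caffeine-treated Tg4-42 mice.

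Hsf1 itself had 68.6, 68.5 and 93.3 CPM in WT mice, 65.5, 98.2 and 67.9 CPM in vehicle-treated and 74.2, 88.4 and 103 CPM in caffeine-treated Tg4-42 mice. The groups overlapped, and the log2 fold change with caffeine was 0.19 (SE 0.18, 95% interval −0.18 to 0.57, adjusted p 0.621). The RNA level of Hsf1 does not show the activity of its protein, which is controlled after translation.

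Vehicle-treated Tg4-42 and WT mice differ in the transgene, whose effect cannot be told apart from other differences between the lines. Between them, 0 of 10 genes were called (0.0979% of all tested genes) and 1 of 10 had an unadjusted p under 0.05 (2.74% of all genes). The groups overlapped for all 10 (6.73% of all genes did not overlap). The median log2 fold change was −0.10 against 0.00 over all genes, and 8 of 10 were lower. Hspe1 was the gene with the unadjusted p under 0.05, with 12.3 ± 1.93 CPM in Tg4-42 and 16.9 ± 5.30 CPM in WT mice and a log2 fold change of −0.48 (SE 0.21, edgeR adjusted p 1). WT replicate 2, at 23.1 CPM, was far above the other WT libraries, and without it the log2 fold change was −0.19. For Hspa8 the log2 fold change was 0.05 (SE 0.16, 95% interval −0.29 to 0.39), and for Hspa1a it was −0.30 (SE 0.30, 95% interval −0.95 to 0.34).

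Between caffeine-treated Tg4-42 and WT mice, which shares the caffeine-treated libraries with the first comparison, 0 of 10 genes were called (0.415% of all genes). An unadjusted p under 0.05 was found for 2 of 10 (15.4% of all genes), Hspa8 and Hspe1, and for the same genes the groups did not overlap (18.8% of all genes). Hspa8 had 120.8 ± 25.6 CPM against 187.1 ± 32.9 CPM in WT mice, a log2 fold change of −0.63 (SE 0.16, 95% interval −0.97 to −0.29, edgeR adjusted p 0.0852), with −0.53 on lane 6 and −0.87 on lane 7. It passed with DESeq2 (4.11% of all genes called), without a filter on low counts (2.79%) and without caffeine replicate 1 (1.62%). Hspe1 had a log2 fold change of −0.49 (SE 0.21, edgeR adjusted p 0.278), and −0.21 without WT replicate 2. The median over the 10 genes was −0.27, against −0.01 over all genes.

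**Figure D3:**
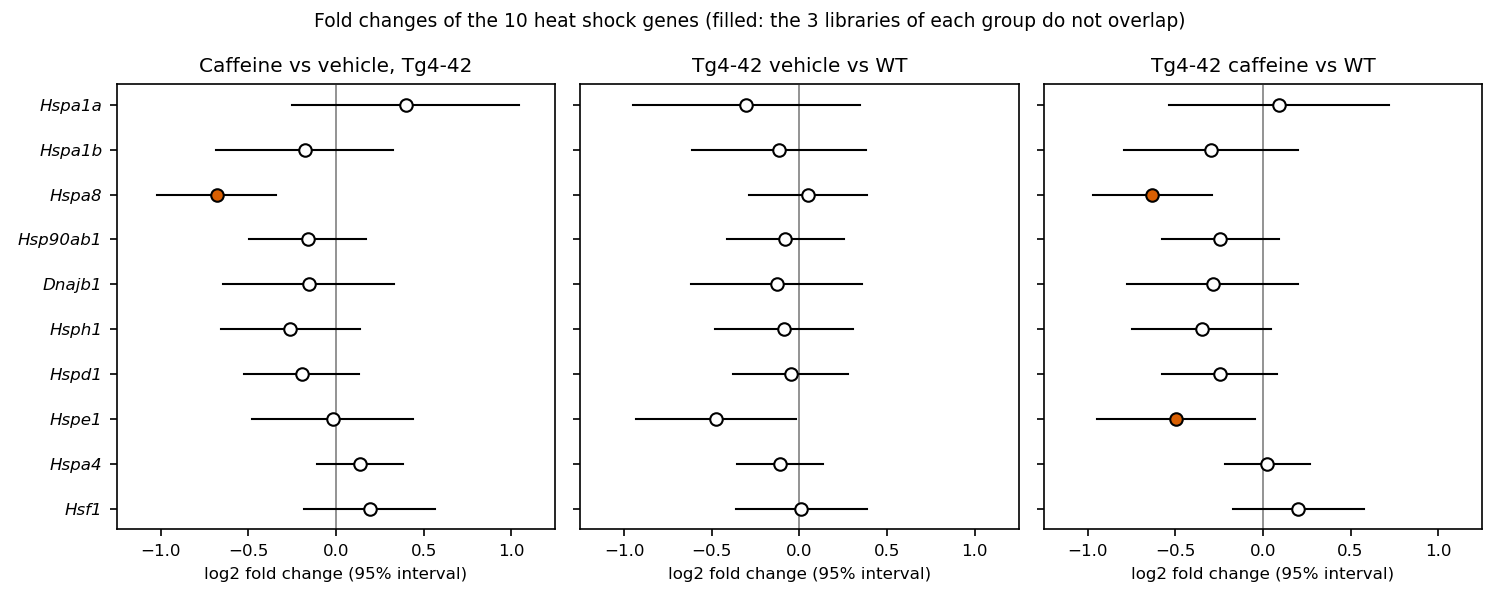
Log2 fold changes (x axis, with 95% intervals) of the 10 heat shock genes (y axis) in the 3 comparisons, each from the fit of all 9 libraries. Filled points mark genes whose groups do not overlap, Hspa8 with caffeine against vehicle (−0.68), and Hspa8 (−0.63) and Hspe1 (−0.49) with caffeine against WT.

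Most of the 10 genes were high or low in the same mice of a group. As deviations from the group means of log2 CPM, 35 of the 45 pairs of genes had a correlation above 0 over the 9 libraries, and each of the 10 pairs below 0 included Hspa4 or Hsf1. These correlations are descriptions without a test, and the points share libraries and their scaling. The share of pairs above 0 among all tested genes was not counted, so this is not shown to be particular to the 10 genes. Hsph1 went with Dnajb1 (Pearson r 0.88, Spearman rho 0.93, and r 0.90 without the 2 libraries farthest from the median) and with Hspa1a (r 0.92, rho 0.80, and 0.93 without those). Hspa8 went with Hsp90ab1 (r 0.84, rho 0.67), but this rested on 2 libraries, since r was 0.46 without them. Hsf1 went with Hspa4 (r 0.78, rho 0.83, and 0.85 without 2 libraries) and opposite to Hsp90ab1 (r −0.70, rho −0.82, and −0.70 without 2 libraries).

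A group of 14 immediate early genes, which neurons switch on within minutes of activity, varied over the same libraries. Their summed level was 647, 1202 and 1077 CPM in WT mice, 674, 761 and 1023 CPM in vehicle-treated and 1254, 536 and 496 CPM in caffeine-treated Tg4-42 mice. The library with the lowest sum in WT mice had the lowest Hsph1, Dnajb1 and Hspa8 of its group. The caffeine-treated library with the highest sum had the highest. In vehicle-treated Tg4-42 mice, replicate 1, with the lowest sum, had the lowest Hsph1 and Dnajb1. Its Hspa8 was 189.7 CPM, above that of replicate 2 at 179.5 CPM. WT replicate 3, with a high sum, had Hspa8 at 178 CPM, below the WT mean of 187.1 CPM. Over the deviations from group means, r with this sum was 0.97 for Hsph1 (rho 0.97, and 0.93 without the 2 libraries farthest from the median), 0.87 for Dnajb1 (rho 0.93, and 0.90) and 0.89 for Hspa8 (rho 0.83, and 0.80). It was −0.30 for Hsf1 and −0.25 for Hspa4. Such values were not particular to immediate early genes. With other summed lists, r was 0.90 for Dnajb1 (endoplasmic reticulum chaperones), 0.87 for Hsph1 (oligodendrocyte markers) and 0.85 for Hspa8 (CA pyramidal markers). With dentate granule cell and interneuron markers, r lay between −0.24 and 0.19 for Hsph1, Dnajb1 and Hspa8. None of the 14 genes passed the threshold between caffeine and vehicle. Jun, with a log2 fold change of 0.80 (edgeR adjusted p 0.0802), and Junb, with 0.26 (adjusted p 0.589), had values above 0, while the median of the 14 was −0.12. The part of neuronal activity in the heat shock values was not tested.

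**Figure D4:**
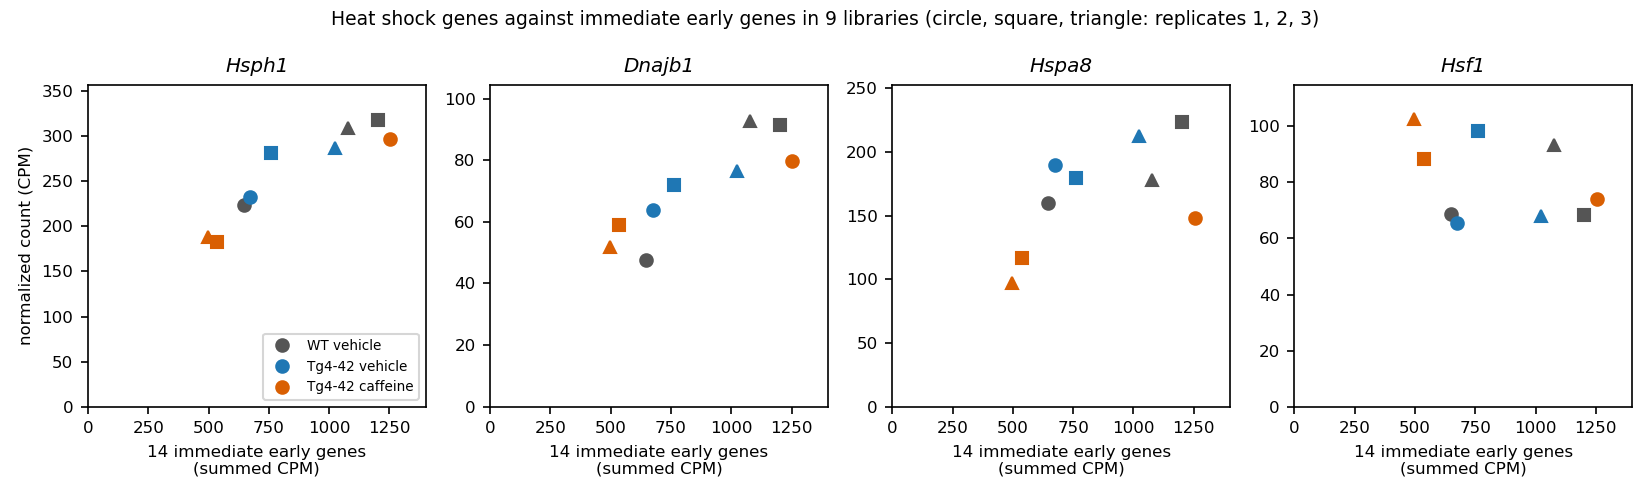
Normalized counts (CPM, y axes from 0) of Hsph1, Dnajb1, Hspa8 and Hsf1 against the summed CPM of 14 immediate early genes (x axis) in the 9 libraries, with colours for groups and shapes for replicates. Hsph1 is higher where the sum is higher, from 183 and 188 CPM in 2 caffeine-treated libraries to 318 CPM in WT replicate 2, and caffeine replicate 1, with a sum of 1254 CPM, lies low for its sum in the Hspa8 panel at 148 CPM.

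The other genes of the chaperone network were taken from fixed lists, with the values given for caffeine against vehicle. Of 6 tested relatives in the HSP70 and HSP110 families, 0 passed the threshold and the median log2 fold change was 0.06, with 0.43 for Hspa2 (adjusted p 0.280) and 0.20 for Hspa14 (adjusted p 0.440). Of 12 genes of HSP90 and its co-chaperones, 0 passed, with a median of −0.06. In this list Stip1, which links HSP70 to HSP90, had −0.30 (adjusted p 0.281) and Chordc1 −0.23 (adjusted p 0.362). Of 20 J-domain and nucleotide exchange genes, 0 passed and 15 were below 0, with a median of −0.07, and with 0.42 for Bag1 (adjusted p 0.365) and −0.31 for Dnajb2 (adjusted p 0.338).

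The TRiC chaperonin, which folds actin and tubulin in the cytosol, had 0 of 8 subunits past the threshold, with 7 below 0 and a median of −0.17. Its subunits Tcp1 and Cct4 had −0.26 (adjusted p 0.317) and −0.24 (adjusted p 0.433). Only 4 of 7 small heat shock protein genes could be tested, and none passed, with a median of −0.55 from values as low as −0.97 for Hspb8 (SE 0.46, adjusted p 0.295) and −0.70 for Cryab (SE 0.24, adjusted p 0.159). The summed level of the 7 small heat shock protein genes was 11.1 to 17.1 CPM with caffeine and 19.1 to 26.1 CPM with vehicle. Cryab is also abundant in oligodendrocytes and astrocytes, whose marker sums are given above, and the part of these cells was not tested.

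In mitochondria, 0 of 7 protease and import genes passed, with a median of 0.04, with 0.40 for the matrix protease Lonp1 (adjusted p 0.156) and 0.28 for Htra2 (adjusted p 0.376). Of 5 tested heat shock factors and other stress regulators, Hsf1 apart, 0 passed and the median was −0.02, with −0.12 for Hsf4 (adjusted p 0.848) and −0.06 for Ddit3 (adjusted p 0.886). Of 26 proteasome genes, 0 passed and the median was −0.01, with −0.19 for Psmd1 (adjusted p 0.505) and −0.18 for Psmd12 (adjusted p 0.551).

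Of 17 chaperones of the endoplasmic reticulum, 16 were below 0 with caffeine. The threshold was passed by 7 of 17, all of them lower, where 0.881% of all tested genes passed. The median log2 fold change was −0.55, close to that of the small heat shock protein genes. No test compared the lists. Hspa8 (−0.68) lay within the range of the 7 called genes (−0.96 to −0.64), which had been picked by the threshold. Between vehicle-treated Tg4-42 and WT mice, Hspa8 had a log2 fold change of 0.05. The 7 called genes had 0.15 (Canx) to 0.52 (Hspa5) in that comparison. They were Hspa5, the HSP70 of this compartment (1383 ± 34.4 CPM with vehicle and 710.6 ± 130 CPM with caffeine, log2 fold change −0.96, edgeR adjusted p 0.0385), the HSP90 relative Hsp90b1 (−0.79, adjusted p 0.0362), the lectin chaperones Calr (−0.82, adjusted p 0.0211) and Canx (−0.64, adjusted p 0.0462), Hyou1 (−0.69, adjusted p 0.0497) and the disulfide isomerases Pdia4 (−0.72, adjusted p 0.0428) and Pdia6 (−0.66, adjusted p 0.0399). Their summed level with that of the other genes of the list was 5978 to 6449 CPM with vehicle and 3370 to 4159 CPM with caffeine, without overlap. In the same mice the sums of the 10 cytosolic and mitochondrial genes were 1675 to 1809 CPM and 1347 to 1801 CPM, which overlapped. Between vehicle-treated Tg4-42 and WT mice, 0 of the 17 passed and the median was 0.24. By an unadjusted edgeR p under 0.05, 6 of 17 were higher there (2.74% of all genes in either direction). Between caffeine-treated Tg4-42 and WT mice, 0 of the 17 passed, with a median of −0.34 and 15 below 0. The calls between caffeine and vehicle depended on the fit, since lane as a covariate left 9 called genes in all and lane 6 alone left 0.

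**Figure D5:**
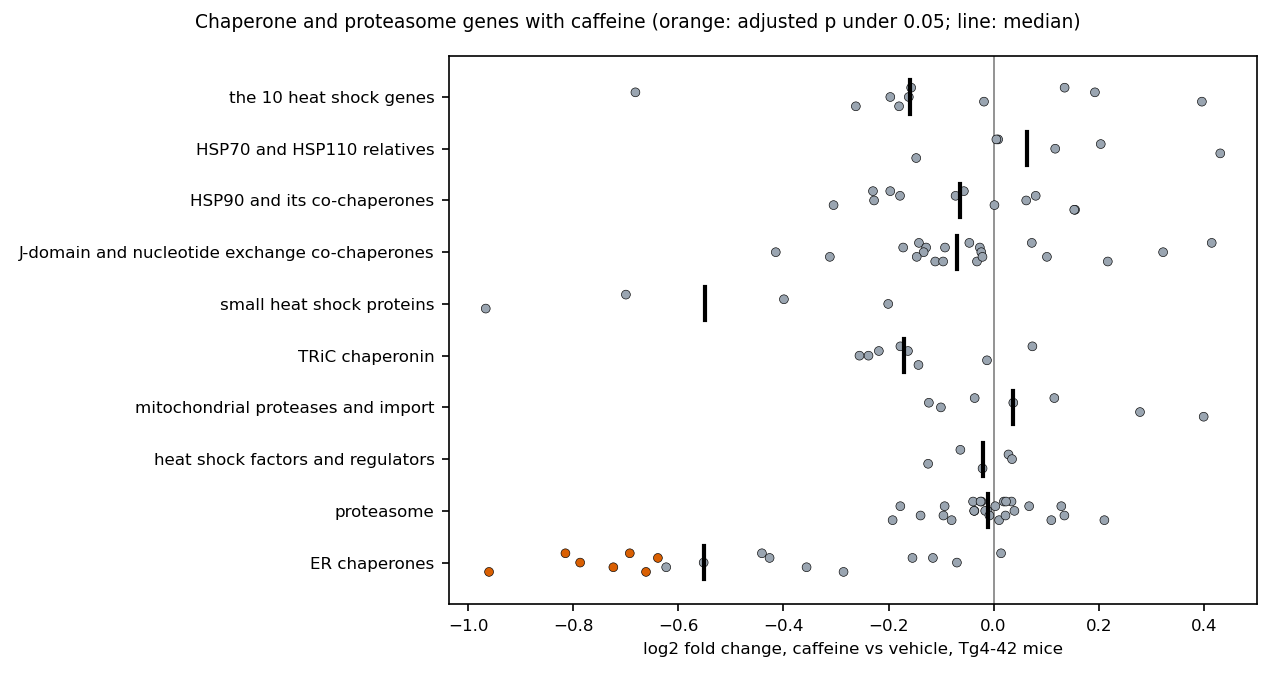
Log2 fold changes between caffeine- and vehicle-treated Tg4-42 mice (x axis) of each tested gene in 10 chaperone and proteasome lists (y axis), with the median of each list as a line. Genes past an adjusted p of 0.05 (orange) are 7 of 17 in the endoplasmic reticulum list, whose median is −0.55, and 0 in the other 9 lists. Of all tested genes, 0.881% passed.

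The genes most like Hspa8 over the 9 libraries, by Pearson correlation of log2 CPM among 17351 other genes, were Tmem59 (r 0.985), Ints12 (0.985), Mcfd2 (0.981), Calu (0.981) and Gpm6a (0.980). None of these 5 passed the threshold between caffeine and vehicle, with log2 fold changes from −0.60 for Calu (adjusted p 0.0529) to −0.44 for Gpm6a (adjusted p 0.131). For Hspa1b they were Gtf2e2 (r 0.959), Ndrg4 (0.933), Wee1 (0.930), Ap2a1 (0.930) and Pxylp1 (0.930). These likenesses include the differences between groups and were chosen as the highest of many.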

How the data were processed

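RNA of sorted NeuN-positive nuclei was sequenced in 9 libraries. The authors mapped 50-base single-end reads to mm10 with STAR, counted reads on exons with featureCounts and deposited whole counts without normalization. Groups came from the genotype and treatment labels, and replicates are separate mice numbered in accession order. Gene symbols and lengths came from GENCODE M21 (48349 of 48709 genes).

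Counts were tested in R 4.3.3 with edgeR 4.0.16 (minimum count 10, minimum total 15, TMM, robust quasi-likelihood fit of all 9 libraries, contrasts, Benjamini-Hochberg threshold 0.05). DESeq2 1.42.0 and limma 3.58.1 served as alternatives. Single genes and ratios were also tested by two-sided exact permutation on log2 values, with a pseudocount of 0.5 CPM for levels. Standard errors came from the F statistic. Methods were tested on simulated data. Named genes are the 10 heat shock genes, from each list the called genes and the 2 with the smallest p for caffeine, and the 5 most like Hspa8 and Hspa1b. Gm15459, Gm8355, Gm26825 and Gm10501 were named after their values were seen. The 10 genes, lists and alternatives were chosen with earlier results of these data known, and lane 6 alone and transcript length were added later. Promoter sequences are from RefSeq. Upstream sequences of Hspa8, Hsp90ab1 and Hsf1 were not analysed here.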

Additional observations from a re-analysis of the deposited data

How the results depend on the processing

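The number of all genes called between caffeine and vehicle in Tg4-42 mice was 153, and it was 747 with DESeq2, 987 without a filter on low counts, 587 with limma-voom, 245 after GC correction, 9 with lane as a covariate and 0 on lane 6 alone. Leaving out 1 library gave 0 (without vehicle replicate 3 or caffeine replicate 3) to 341 (without caffeine replicate 1), with 3 without vehicle replicate 1 and 58 without caffeine replicate 2. Between caffeine-treated Tg4-42 and WT mice 72 were called, and 553, 860, 125, 146, 42 and 17 in the same order of settings, and 16 to 287 when 1 library was left out. Between Tg4-42 and WT 17 were called, 74 without the filter, and 14 to 18 when 1 library was left out. Of the 10 heat shock genes, 0 were called in the main comparisons and 1, Hspa8, under the settings named with it; leaving out 1 library gave 0 to 1 for both comparisons with caffeine.

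The replicate block called 187, 16 and 82 genes for caffeine against vehicle, Tg4-42 against WT and caffeine-treated Tg4-42 against WT, and 0 of the 10 heat shock genes. Numbers were given in accession order, and the labels name no pairs, but replicate 3 of each group shares lane 7. The correlation of deviations of same-numbered libraries was 0.15, 0.18 and −0.17 for the first comparison, 0.19, 0.14 and 0.16, each above 0.1, for the second and −0.17, 0.01 and −0.11 for the third.

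Of 351 fold changes of the 10 genes under alternatives, 338 kept direction and side of the threshold and 5 turned direction: Dnajb1 with caffeine (0.045 on lane 6), Hsf1 in Tg4-42 against WT (−0.011 with limma-voom, −0.0053 after GC correction), Hspa8 in Tg4-42 against WT (−0.064 on lane 6) and Hspa1a in caffeine-treated Tg4-42 against WT (−0.0036 with limma-voom). When 1 library was left out, 19 of 180 turned, and the causes were not tested. The ranges were −0.11 to 0.11 for Hspe1 with caffeine. In Tg4-42 against WT they were −0.052 to 0.20 for Hspa8, −0.20 to 0.16 for Hsf1, −0.18 to 0.074 for Hsp90ab1, −0.38 to 0.015 for Dnajb1, −0.23 to 0.0026 for Hsph1, −0.18 to 0.083 for Hspd1 and −0.22 to 0.0078 for Hspa1b. In caffeine-treated Tg4-42 against WT they were −0.091 to 0.21 for Hspa1a and −0.029 to 0.074 for Hspa4. With 15 to 49 counts per library, Hspa1a was the least precise of the 10, with a standard error of 0.30.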
